A study of Mus musculus with 4 samples.

Results

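Long internal exons of coding mRNAs carried 2749 m6A peaks that were found in both replicates of mouse brain. Among the peaks shared by both replicates, these were chosen by position, with no limit on fold enrichment. Each shared interval, that is the overlap of peaks from either list, was placed by its midpoint on the spliced mRNA with the longest coding sequence of its gene (GENCODE M21, build mm10). It was kept when the midpoint lay in coding sequence, in an exon of at least 400 nt that was neither the first nor the last, and more than 200 nt from the start and the stop codon. Of 23901 shared intervals, 19713 were placed on the exons of a single gene, and the 2749 members made up 13.9% of these. They lay in 2106 exons of 1745 genes.

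m6A-seq was performed on poly(A)-selected mRNA (listed as total RNA in the labels) of whole brain from mice at 4 weeks of age, by pulling down fragmented RNA with a polyclonal antibody against m6A and sequencing it beside unselected input RNA. The series held 2 m6A immunoprecipitation (IP) samples and 2 input samples of this single condition, with no second genotype or treatment. The sample labels gave the strain as C57BL/6J, whereas the design text named Prrc2a flox/flox mice, an allele with loxP sites that is left intact without Cre, and no Cre driver was named for these samples. Every peak came with its fold enrichment, the linear ratio of IP over input that the peak caller gave, and no read counts came with the lists, which leaves the depth behind each value unknown. The labels did not say whether the replicates came from separate animals, while the paper calls them biological replicates.

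N6-methyladenosine is a methyl mark on adenosines of mRNA. It is placed in the nucleus by a writer complex around Mettl3 and Mettl14, mostly in sequence of the form DRACH (A, G or T, then A or G, then AC, then any base but G), can be removed by erasers such as Fto, and is bound by readers such as the YTH-domain proteins. The mark is known to gather around stop codons and in unusually long internal exons. Exon junction complexes, which are left on mRNA just upstream of spliced junctions, are known to keep the writer away from nearby sequence. They were not measured here.

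The sequences under 9 of the members are shown, because they hold the motif on which the results below turn, and because they belong to the members with the highest enrichment or to genes of the m6A machinery and the oligodendrocyte lineage. Each is the stretch of 120 nt of the interval with most GGAC, read 5′ to 3′ on the strand of the gene from build GRCm38 (mm10), with GGAC in capitals. All lie within coding exons. They are a selection. Stretches of Brwd1, Klhl33, Cenpj and Asb7, also among the most enriched members, and of Fto are not shown. Those held GGAC but no GGACT, so that the 9 shown overstate how often GGACT occurs.
Son (chr16:91656592-91656711, plus strand): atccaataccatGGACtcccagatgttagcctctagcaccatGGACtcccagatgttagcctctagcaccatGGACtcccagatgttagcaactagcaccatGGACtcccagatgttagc
Synpo2 (chr3:123114241-123114360, minus strand): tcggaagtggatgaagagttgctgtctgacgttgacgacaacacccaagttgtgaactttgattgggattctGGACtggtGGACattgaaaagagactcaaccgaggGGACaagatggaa
Setd1b (chr5:123158632-123158751, plus strand): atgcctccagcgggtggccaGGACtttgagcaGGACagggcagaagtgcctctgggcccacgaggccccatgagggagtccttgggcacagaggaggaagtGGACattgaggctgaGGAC
Bahcc1 (chr11:120276518-120276637, plus strand): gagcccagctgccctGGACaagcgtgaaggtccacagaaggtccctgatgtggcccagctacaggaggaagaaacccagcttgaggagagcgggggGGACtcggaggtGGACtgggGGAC
Lats1 (chr10:7705679-7705798, plus strand): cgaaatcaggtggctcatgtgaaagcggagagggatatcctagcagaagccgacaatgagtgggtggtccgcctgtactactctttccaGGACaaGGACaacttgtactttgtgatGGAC
Wdr66 (chr5:123254594-123254713, plus strand): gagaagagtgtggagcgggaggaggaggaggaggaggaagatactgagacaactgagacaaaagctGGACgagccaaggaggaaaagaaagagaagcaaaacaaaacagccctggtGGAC
Ythdf2 (chr4:132204336-132204455, minus strand): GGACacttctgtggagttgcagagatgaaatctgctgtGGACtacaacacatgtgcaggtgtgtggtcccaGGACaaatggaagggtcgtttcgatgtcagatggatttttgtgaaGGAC
Prrc2a (chr17:35155406-35155525, minus strand): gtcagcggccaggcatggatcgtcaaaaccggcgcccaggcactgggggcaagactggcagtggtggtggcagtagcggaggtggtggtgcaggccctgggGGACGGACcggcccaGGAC
Cspg4 (chr9:56886636-56886755, plus strand): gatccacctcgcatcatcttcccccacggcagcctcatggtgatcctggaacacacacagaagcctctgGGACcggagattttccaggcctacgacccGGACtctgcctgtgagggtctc

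The stretch of Son, which encodes a splicing factor of nuclear speckles, held GGACT 4 times in a tandem repeat. Over the whole member of 718 nt there were 13 GGACT, and 11 of the 12 steps between neighbours were exactly 30 nt. No other member held as many. The peaks were called on uniquely mapped reads, and the part that the repeat plays in the enrichment at Son was not tested. By contrast, the stretch of Wdr66 and the whole member around it held GGAC but no GGACT. Wdr66 was not alone in this. The whole members of Brwd1, Klhl33 and Cenpj, which are also among the most enriched members ranked below, held GGAC but no GGACT. Of the others in that ranking besides Son, Synpo2, Setd1b and Lats1 held 1 GGACT each, Asb7 held 2 and Bahcc1 held 6.

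The members had a median fold enrichment of 3.53 in replicate 1, with quartiles of 2.70 and 4.43. In replicate 2 the median was 2.53, with quartiles of 2.13 and 3.01. Values were higher in replicate 1 for 82.4% of the members, against 78.5% of all placed intervals. In both replicates at least 2-fold enrichment was reached by 2167 members (78.8%). Across the members the values of both replicates were related with a Spearman's rho of 0.473 and a Pearson's r of 0.476 on the log2 scale. This is given as a description over 2749 intervals, which share libraries and in part share peaks. The median member was 412 nt long (quartiles 285 and 621), and its exon 970 nt (quartiles 639 and 1801). A total of 2248 members (81.8%) lay wholly inside their exon, 164 reached over the upstream border only, 304 over the downstream border only and 33 over both. Because wide peaks can meet several peaks of the other replicate, the members rested on 2602 different peaks of replicate 1 and 2626 of replicate 2, and members under the same peak carry the same value. The lengths ran from 3 to 4125 nt, with 37 members under 100 nt and 192 over 1000 nt.

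**Figure D1:**
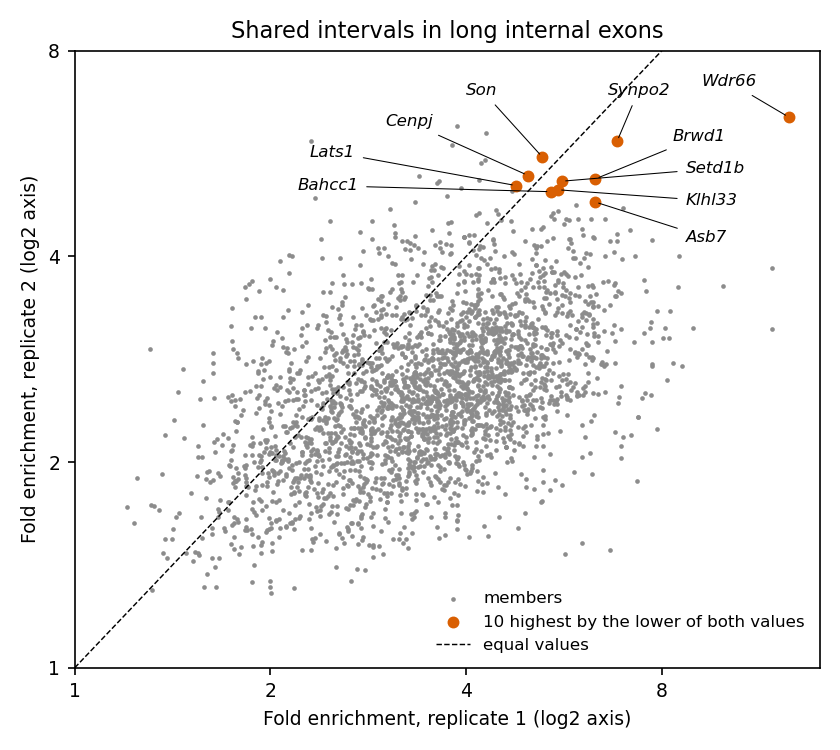
Fold enrichment of the 2749 members in replicate 1 (x axis) and replicate 2 (y axis), both on log2 axes, with 1 point per member. Most points lie under the dashed line of equal values, since 2266 members were higher in replicate 1, and Wdr66 stands farthest to the upper right at 12.6 and 6.39.

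Ranked by the lower of their replicate values, 1 per gene, the first 10 members were led by Wdr66, a WD-repeat protein of cilia, at 12.6 in replicate 1 and 6.39 in replicate 2. Synpo2, an actin-binding protein, followed with 6.83 and 5.89. The repeat of Son had 5.24 and 5.59. That these members are high in both replicates follows from the ranking. The second member of Synpo2 in the same exon shows how values are shared: it lay under the same replicate 2 peak with 5.89 and had 2.31 in replicate 1. Brwd1, a bromodomain protein, had 6.32 and 5.19, and its interval of 1161 nt was longer than the exon of 921 nt. Setd1b, a histone H3 lysine methyltransferase, had 5.61 and 5.15 in exon 11, and further members in exons 6, 7 and 12. Bahcc1, a chromatin protein with a BAH domain, had 5.40 and 4.98 in exon 11 and further members in exons 5 and 26. Cenpj, which is needed for centriole assembly, had 4.98 and 5.25. Lats1, a kinase of the Hippo pathway, had 4.78 and 5.08. Together with Son these are the only members among the 10 in which replicate 2 gave the higher value. Asb7, a substrate receptor of a ubiquitin ligase, had 6.31 and 4.81, and Klhl33 of the kelch-like family had 5.53 and 5.01.

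To ask how the enrichment in long internal exons compared with other places in mRNA, the members were set beside the 3584 shared intervals in short internal exons, the 4380 within 200 nt of a stop codon and the 1639 in the coding part of last exons. Short internal exons had medians of 2.39 and 1.86 in replicates 1 and 2, stop codons 3.25 and 2.50, and last-exon coding sequence 4.23 and 2.87. In both replicates the order was thus last-exon coding sequence, long internal exons, stop codons and short internal exons. The members exceeded short internal exons by 0.56 (log2 of the medians) in replicate 1 and 0.45 in replicate 2, a difference of 0.51 ± 0.081 (SD, n = 2), that is 1.48-fold and 1.37-fold. Against stop codons the difference was 0.12 and 0.02, with a mean of 0.07 ± 0.071 (SD, n = 2), which is no larger than the spread between replicates. Against last-exon coding sequence it was -0.26 and -0.18, or -0.22 ± 0.057 (SD, n = 2). With 2 replicates an exact sign-flip permutation test (two-sided) cannot go below p = 0.5, which is the value for each of these differences, so that the direction in both replicates is all the design can show. At least 2-fold enrichment in both replicates was reached by 33.6% of the intervals in short internal exons, against 78.8% of the members. Only 11.8% of the short-exon intervals lay wholly inside their exon, so that most of them also cover neighbouring intron sequence, and the part this plays in their lower values was not tested.

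**Figure D2:**
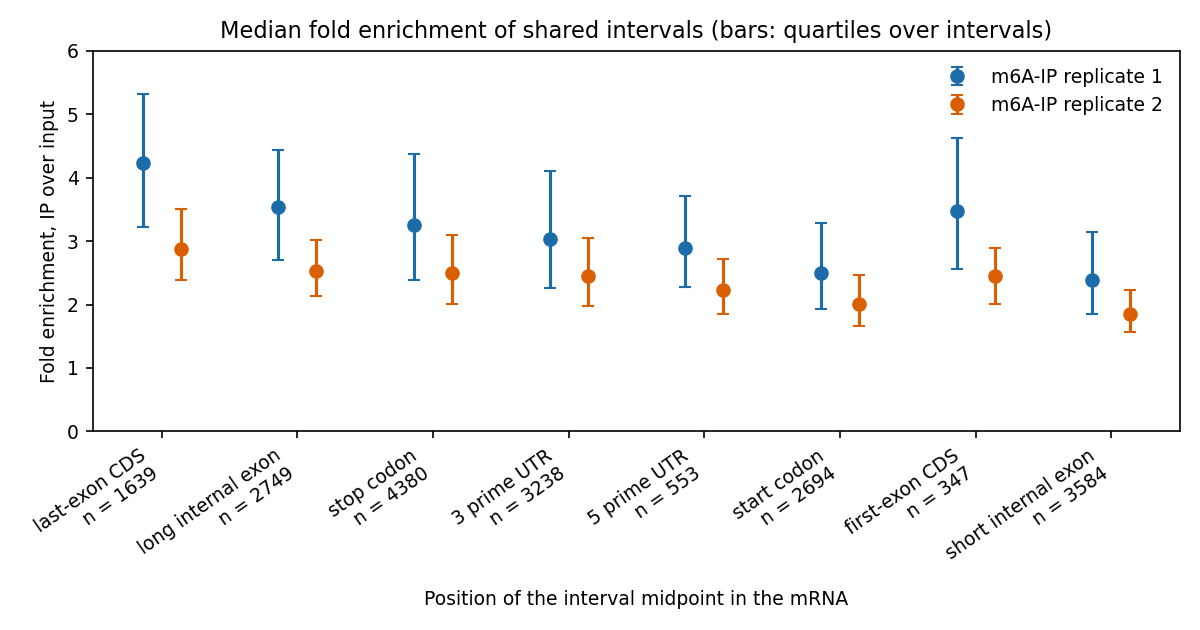
Median fold enrichment of IP over input (y axis) by position of the interval midpoint in the mRNA (x axis), for replicate 1 (blue) and replicate 2 (orange), with bars from the lower to the upper quartile over intervals. Long internal exons, at 3.53 and 2.53, lie next to stop codons at 3.25 and 2.50 and above short internal exons at 2.39 and 1.86.

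The comparison was repeated within genes. Exons of a gene can belong to transcripts of different levels, which were not measured here. For each of 496 genes with intervals in both kinds of internal exon, the log2 fold enrichments of each kind were averaged. The mean of the members was higher than that of the short-exon intervals in 421 (84.9%) in replicate 1 and in 418 (84.3%) in replicate 2. It was higher in both replicates in 373 genes and lower in both in 30. The median log2 difference within a gene was 0.55 in replicate 1 and 0.33 in replicate 2. No such difference was seen against stop codons, where the members were higher in 349 of 684 genes (51.0%, Wilson 95% interval 47.3% to 54.8%) in replicate 1 and 341 (49.9%, 46.1% to 53.6%) in replicate 2. Against the coding part of the last exon of the same gene, members were higher in 58 of 189 genes (30.7%) in either replicate and lower in both replicates in 108.

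The share of exons that held a shared interval rose steeply with exon length. Length classes below run from their lower value up to, but not including, the upper one. Among 80228 internal exons of genes with a shared interval, 7.09% held the midpoint of one, while among the 2940 of at least 400 nt it was 71.6%, that is 2106 exons. Exons under 100 nt held one in 2.63% of cases (620 of 23612), exons of 100 to 200 nt in 4.42% and exons of 200 to 400 nt in 10.7%. The share was 61.1% at 400 to 800 nt (1054 of 1724), 84.8% at 800 to 1600 nt and 90.4% from 1600 nt (338 of 374). In steps of 100 nt it was 8.88% at 200 to 300 nt, 22.1% at 300 to 400 nt, 45.3% at 400 to 500 nt (Wilson 95% interval 41.5% to 49.2%) and 65.0% at 500 to 600 nt (60.4% to 69.4%). The rise thus began below the limit of 400 nt, was largest between the classes on either side of it, and continued above it. Since longer exons offer more room, the number of midpoints per kb of eligible exon was also computed. It was 0.376, 0.334 and 0.480 in the short length classes in rising order and 1.28, 1.07 and 0.806 in the long ones, so that the density was highest just above the limit. Long exons made up 3.66% of these exons and 21.6% of their eligible bases, and held 43.4% of the intervals.

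**Figure D3:**
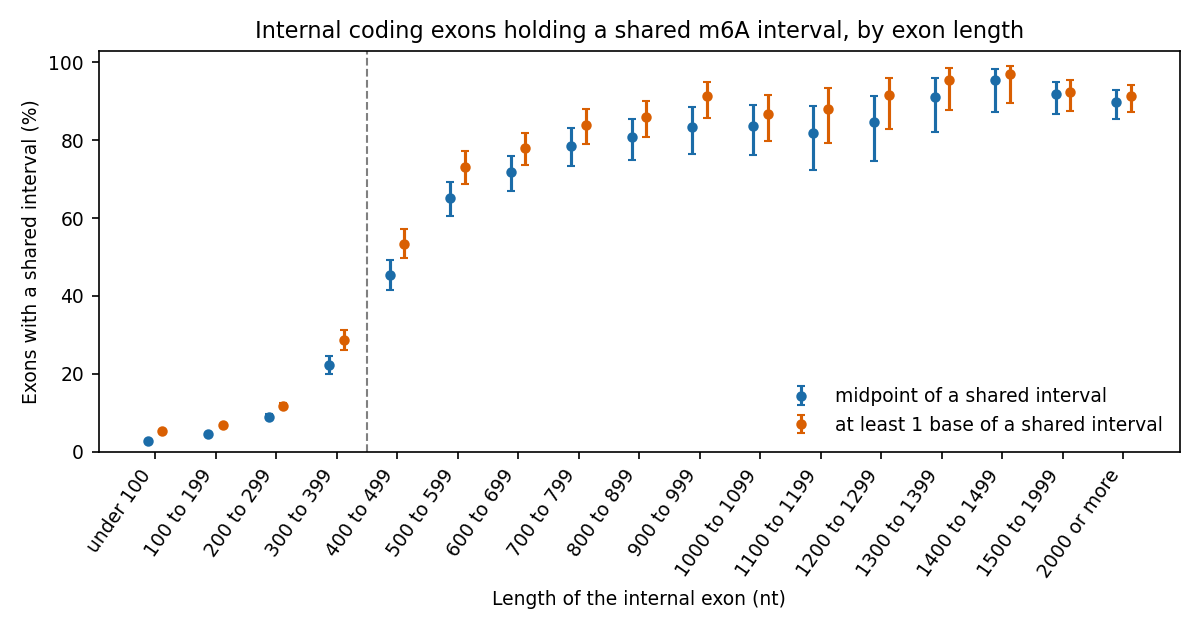
Share of internal coding exons (y axis, percent) that held the midpoint (blue) or at least 1 base (orange) of a shared interval, by exon length in nt (x axis), with Wilson 95% intervals for counting error only and the limit of 400 nt as a dashed line. The share climbs from 2.63% under 100 nt over 22.1% at 300 to 400 nt to 65.0% at 500 to 600 nt, and any base in place of the midpoint gives the same course.

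An exon can bring its own gene into this count. With only the 8211 genes that had a shared interval outside internal exons, 68.0% of the long exons held a member (1538 of 2263), and the share was 2.24% under 100 nt and 9.41% at 200 to 400 nt. A midpoint can also fall outside a short exon whose bases the peak covers. Counting any base of a shared interval, 5.21% of the exons under 100 nt, 14.1% at 200 to 400 nt, 68.4% at 400 to 800 nt and 91.7% from 1600 nt were touched. Long and short exons were also compared within genes, although they need not lie in the same transcripts. Of 1721 genes with both kinds of exon and an interval in either, the density of intervals was higher in the long exons in 1462 and in the short ones in 259, with 1.04 intervals per kb against 0.344 over these genes.

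The motif GGACT, the form of DRACH most often reported as methylated, occurred at much the same density in internal exons of all lengths, from 1.05 to 1.30 per kb of eligible exon. How often a GGACT was covered by a shared interval, however, differed with exon length. In exons under 100 nt 3.05% were covered (55 of 1801), in exons of 100 to 200 nt 4.54% and in exons of 200 to 400 nt 12.2%. The share was 65.1% at 400 to 800 nt (710 of 1091, Wilson 95% interval 62.2% to 67.8%), 70.2% at 800 to 1600 nt and 61.3% from 1600 nt. The same 5 letters thus lay in a peak of both replicates far more often in a long exon than in a short one. The share of exons with an interval rose with length in the same way. Coverage of all exon bases was not computed by length class, so that these values cannot be read as particular to GGACT. The shortest listed peak had 200 nt, so that a peak on an exon under 200 nt must reach outside it. Every GGACT of a short exon also lies within 200 nt of a border. In long exons, too, coverage was lower within 100 nt of a border, as given below. The part these play in the difference was not tested.

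A total of 834 long exons held no member. They were shorter, with a median of 523.5 nt, which is 275.5 nt less than that of the exons with a member. In 325 of them no peak base was called in either replicate, in 208 only replicate 1 and in 116 only replicate 2 had one, and 185 had bases of both without a shared midpoint by the rule. Of the exons spanned by at least 2 coding transcripts, the borders were identical in all of these transcripts in 72.8% of those with a member and 68.1% of those without. The Wilson 95% intervals were 70.4% to 75.0% and 64.3% to 71.8%. Their overlap does not show that the shares are equal, and the difference was not tested. Of the exons with members, 1688 held 1, 289 held 2, 76 held 3 and 53 held at least 4, with 8 as the most. Members covered a median of 66.6% of the exon at 400 to 800 nt, 62.1% at 800 to 1600 nt and 52.8% above. The midpoints within 1 exon of at least 1600 nt stood a median of 924 nt apart.

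The genes with most members had them spread over several long exons. Most members, 14 in 6 exons, were found in Pclo, a giant scaffold of the presynaptic active zone. They ranged from 2.13 to 6.13 in replicate 1 and from 1.89 to 3.08 in replicate 2, and 7 of them lay in exon 5. Bsn, its partner at the active zone, had 10 in 5 exons (1.43 to 5.72 and 1.66 to 2.64). Spen, a transcriptional corepressor that binds RNA, had 10 in 3 exons (1.91 to 5.26 and 1.55 to 3.75). Fat2, an atypical cadherin, and Kmt2d, a histone H3 lysine methyltransferase, had 9 each, with medians of 3.41 and 3.55 in replicate 1 and 2.32 and 2.25 in replicate 2. Within each of these genes the members differed more widely in replicate 1 than in replicate 2. Of all 1745 genes, 1172 had 1 member, 359 had 2, 114 had 3, 49 had 4 and 51 at least 5.

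The longest exon with members was exon 22 of Stard9, a kinesin, with 9837 nt and 6 members of 3.17 to 4.60 in replicate 1 and 2.21 to 4.30 in replicate 2. They were narrow, covered 19.0% of the exon and lay a median of 1302 nt apart. Exon 5 of Map1a, a microtubule-associated protein of neurons, showed the opposite pattern. Its 8104 nt were covered to 89.8% by only 3 members, of which the widest had 4059 nt, because all lay under a single replicate 2 peak of 2.79. Exon 12 of Spen, 8020 nt long, had 8 members that covered 77.3%. Bsn exon 5 was covered to 81.7% by 6 members, 4 of which shared a replicate 2 peak of 2.49. The number of members in such an exon therefore depends on how the peak caller joined or divided broad enrichment, and does not count methylated sites.

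**Figure D4:**
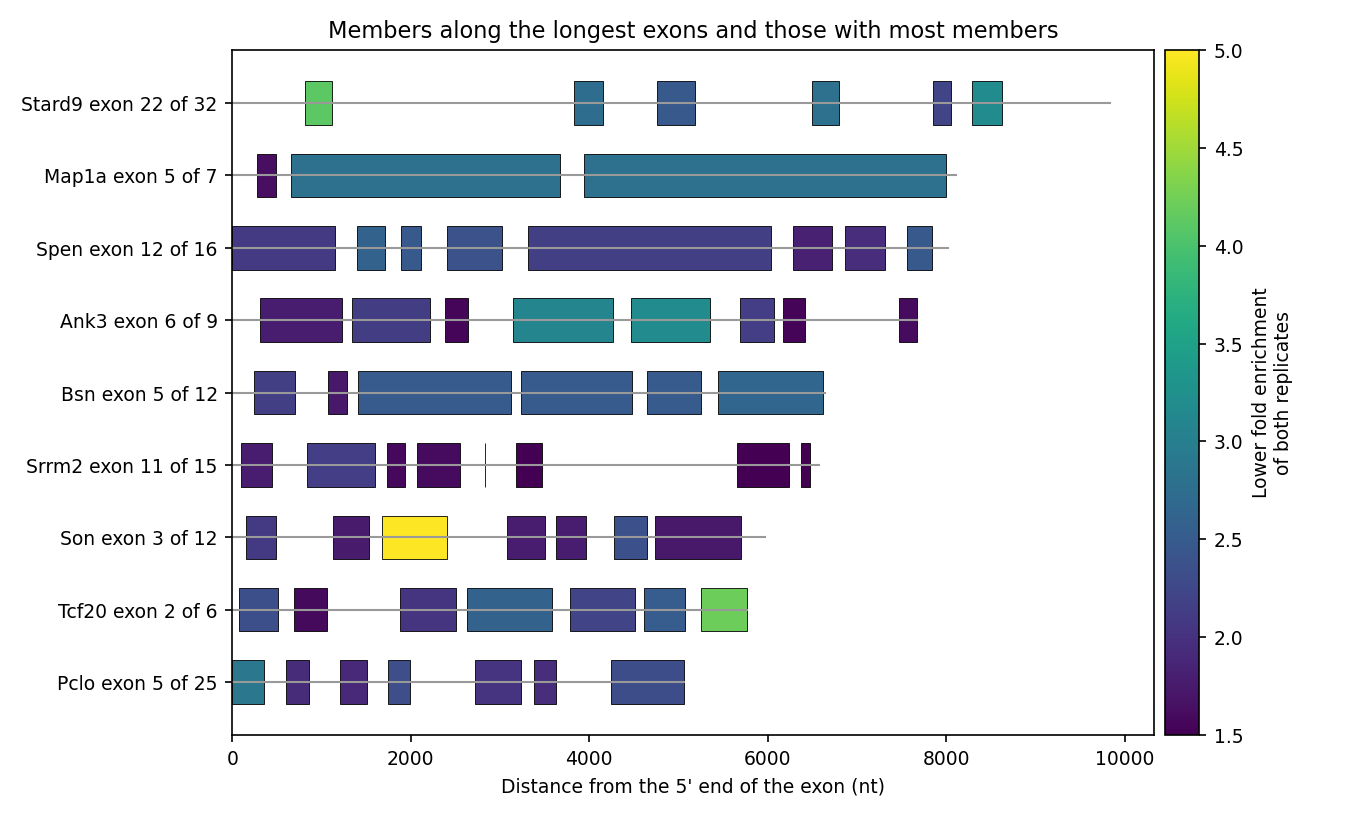
Members (boxes) along the 6 longest exons with a member and the 6 exons with most members (9 exons in all, since some are in both sets), by distance from the 5′ end of the exon in nt (x axis), coloured by the lower fold enrichment of both replicates. Stard9 exon 22 carries 6 separate narrow boxes on 9837 nt, while Map1a exon 5 is covered to 89.8% by 3.

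The midpoints of the members fell within 100 nt of a border in 2.76% of cases (76 of 2749, Wilson 95% interval 2.21% to 3.45%), against 19.8% of all eligible positions of the same exons, and within 50 nt in 0.473% against 9.73%. In exons of at least 1000 nt the share within 100 nt was 1.27% against 9.30%. By distance, midpoints were most frequent 250 to 300 nt from either border, with 1.76 times the even number on the upstream side and 1.91 times on the downstream side. With exons divided into 10 equal parts from the 5′ end, part 6 held 21.2% of the midpoints, against 10.8% of eligible positions, while part 1 held 2.73% and part 10 held 3.31%. The length of the intervals bears directly on this. An interval that lies wholly inside an exon cannot have its midpoint nearer to the border than its own length allows. For the 2248 members wholly inside, 15.3% of the midpoints lay within 200 nt of a border, and an interval of the same length set at every possible place in the same exon gave 13.7%. Their nearer edge was within 25 nt of the border in 28.4%, where even placement gave 16.5%, and within 100 nt in 43.1% against 46.5%. Set against even placement at their own length, the members wholly inside thus showed no shortage of midpoints within 200 nt of a border.

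The share of GGACT covered by shared intervals, which does not count midpoints, was lower next to borders. Coverage of all exon bases at the same distances was not computed, so that these values cannot be read as particular to GGACT. Of the GGACT in long internal exons, 31.0% of those within 50 nt of the nearer border were covered by a shared interval (72 of 232, Wilson 95% interval 25.4% to 37.3%) and 47.4% at 50 to 100 nt (143 of 302). The share was 71.5% at 100 to 150 nt, 78.2% at 200 to 300 nt (428 of 547, 74.6% to 81.5%) and 64.2% from 400 nt. In exons of at least 1000 nt the course was similar, with 31.1% within 50 nt and 75.4% at 200 to 300 nt. Peaks were called along the genome, where reads across a junction are divided between exons, and the shortest listed peak had 200 nt. The part these play next to borders was not tested.

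**Figure D5:**
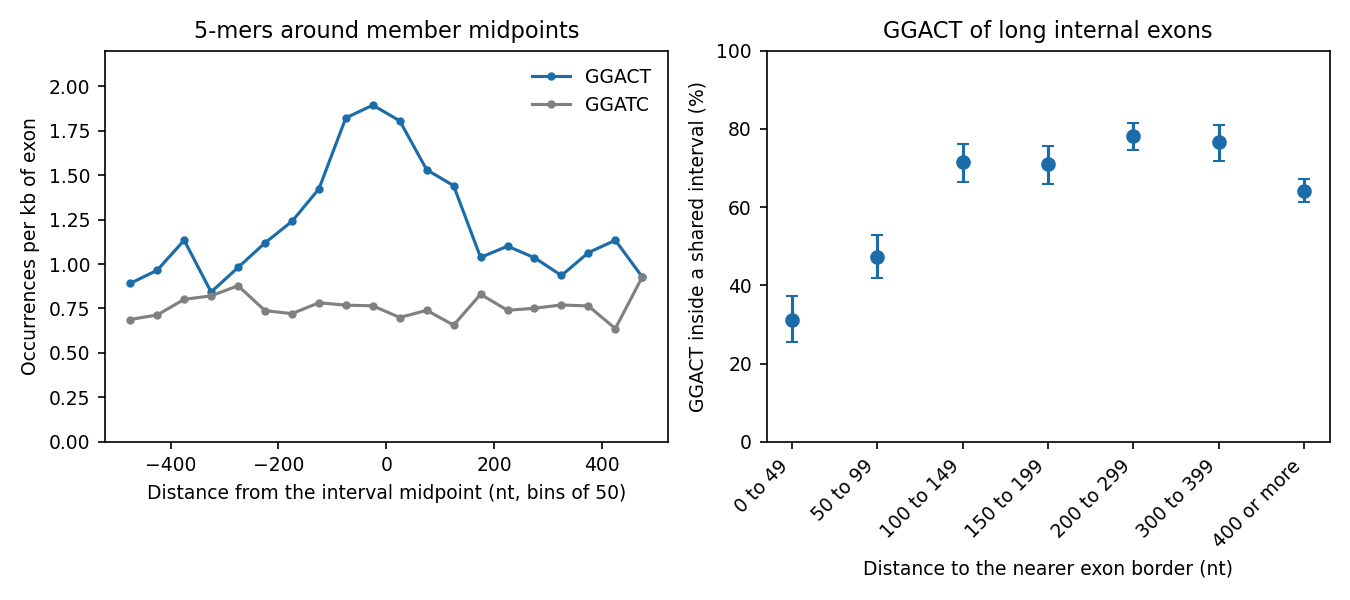
Left, occurrences of GGACT (blue) and of the same letters in the order GGATC (grey) per kb of exon sequence (y axis) by distance from the member midpoint in nt (x axis, bins of 50). Right, share of the GGACT of long internal exons that lay inside a shared interval (y axis, percent, Wilson 95% intervals) by distance to the nearer exon border in nt (x axis), which is 31.0% within 50 nt and 78.2% at 200 to 300 nt.

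Inside the members the motif was denser than elsewhere in the same exons. GGACT occurred 1.57 times per kb of member sequence (2089 occurrences) and 0.624 times per kb of the sequence of the same exons that lay in no peak of either replicate (320 occurrences), a ratio of 2.52. Among the 1186 exons with at least 100 bases of each kind the density was higher inside in 569, lower in 151 and equal in 466, mostly because neither held the motif. GGAC, searched on the strand of the gene like all motifs here and including every GGACT, gave 6.19 against 3.12 per kb. DRACH, which is so short in its fixed letters that it occurs almost everywhere, gave 23.7 against 18.6. In long exons without any peak base GGACT stood at 0.792 per kb, also below the members.

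GGACT ranked 1 of all 1024 5-mers by this ratio. The next was CGGAC with 2.13, then AGGAC with a ratio just below it, GGACA with 2.05 and GGGAC with 2.00. All of these contain GGAC, and GGAGG followed with 1.98. The lowest ratio was 0.461, for TTATA. Member sequence was also richer in G and C (54.2% against 50.9%), and runs such as GGGGG (1.95) and CCCCC (1.82) were denser too. The 59 other orders of the letters of GGACT, which have the same composition, had a median ratio of 0.992 and a maximum of 1.87, for GACTG, which overlaps with it. Around the midpoints GGACT peaked at 1.89 per kb in the 50 nt upstream, whereas GGATC varied little along the whole window.

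Not every member held the motif. GGACT occurred in 1322 members (48.1%) and GGAC in 2403 (87.4%). In windows of 201 nt around the midpoint GGACT was found in 28.8% of the members (771 of 2673, Wilson 95% interval 27.2% to 30.6%), against 11.6% of equally long windows in the rest of the same exons (140 of 1207, 9.91% to 13.5%). Sites of other sequence and sites away from the midpoint are not counted by this. Fold enrichment was somewhat higher where GGACT was frequent. The median was 3.46 in replicate 1 and 2.50 in replicate 2 for the 1954 members with no GGACT within 100 nt of the midpoint, 3.68 and 2.57 for the 656 with 1, 3.79 and 2.70 for the 125 with 2, and 4.71 and 3.20 for the 14 with 3 or more. The quartiles of the first 3 of these groups overlapped widely, and the last is small. In the reading frame, GAC, a codon for aspartate, was the codon in 53.1% of the GGACT inside members and in 46.9% of those outside.

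Peaks in long internal exons were shared between replicates more often than most. Of the replicate 1 peaks placed in long internal exons, 82.2% were met by a peak of replicate 2 (2589 of 3148, Wilson 95% interval 80.9% to 83.5%), against 53.7% in short internal exons, 77.4% at stop codons, 83.8% in last-exon coding sequence and 60.0% of the whole list. Of the replicate 2 peaks it was 92.9% (2613 of 2812, 91.9% to 93.8%), against 59.5%, 85.3%, 94.2% and 77.0%. Sharing was thus higher than in short internal exons in either replicate. Peaks with a higher value were shared more often. In long exons the shared peaks of replicate 1 had a median of 3.51 and the unshared ones 2.94, so that fold enrichment moves with sharing, and its part in the difference between exon classes was not tested.

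The lists of functionally related genes were chosen with earlier results of these data known. They differed in how many of their long exons held a member, beside 71.6% over all genes with a shared interval. RNA-binding and RNA-processing proteins had one in 25 of 26 long exons, chromatin regulators in 87 of 96 (90.6%), transcription factors in 36 of 40 (90%) and synaptic scaffolds in 45 of 52 (86.5%). The share was 81.0% for cytoskeletal genes (34 of 42), 77.6% for adhesion and axon guidance genes (59 of 76), 72.7% for genome maintenance (16 of 22) and 68% for ion channels and transmitter receptors (34 of 50). It was 93.3% for the m6A writers, erasers and readers (14 of 15) and 71.4% for the oligodendrocyte lineage (5 of 7). The median length of the long exons also differed between the lists, from 1796.5 nt in transcription factors to 619 nt in the m6A genes and 575 nt in the oligodendrocyte lineage, and its part in these shares was not tested. Median fold enrichments of the lists lay between 2.87 and 3.72 in replicate 1 and between 2.07 and 2.98 in replicate 2, around the 3.53 and 2.53 of all members.

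By the lower of both values, the list of chromatin regulators was led by Setd1b and then Jmjd1c, of the histone demethylase family, with 5.70 and 4.54. The list of transcription factors was led by the homeobox factor Zfhx4 with 4.32 and 4.47. It had 8 members in 3 exons, none under 2.86 in replicate 1 or 2.76 in replicate 2. Next in that list, Tcf20, a transcriptional coregulator, had 5.33 and 4.22 at the 3′ end of exon 2, a coding exon of 5772 nt with 7 members. In the RNA-binding list Tnrc6b, a partner of Argonaute in silencing by microRNAs, followed Son with 4.73 and 4.35, in a member of 1984 nt with 5 GGACT.

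In neuronal genes, Scn2a, a voltage-gated sodium channel, had 5.94 and 4.53 in exon 17, and Cacna1e, a voltage-gated calcium channel, 6.11 and 3.45 in exon 20. Dlgap3, a scaffold of the postsynaptic density, had 6.67 and 4.21, with a member of 1120 nt on an exon of 1152 nt. Sipa1l3, of the family of Rap GTPase-activating proteins, had 4.61 and 3.26. In Scn2a, Cacna1e and Dlgap3 these members covered most of exons of 480 to 1152 nt. Among adhesion and guidance genes the ephrin receptor Epha3 had 5.45 and 4.63 with 4 GGACT, and the giant cadherin Dchs1 had 4.40 and 4.23. In the cytoskeleton list the linker Dst had 5.13 and 4.14 in exon 39, and 4 further members between 1.37 and 2.73. Camsap2, which binds microtubule minus ends, had 5.47 and 3.79. Of the genome maintenance genes, the helicases Fancm and Blm had 6.54 and 4.53, and 5.66 and 4.46.

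Genes of the m6A machinery carried peaks in their own long exons. Of 15 such exons in 9 of these genes, 14 held members (93.3%, against 71.6% over all genes), in all 17 members in 8 genes, with median fold enrichments of 3.72 and 2.80. This list, too, was chosen with earlier results of these data known. Ythdc1, the nuclear reader, had 6.17 and 3.29 on an exon of 427 nt that its member filled. Ythdf2, a cytoplasmic reader, had 4.45 and 3.24 in the member of 852 nt shown above, and 2.29 and 2.02 in a second member of the same exon 4. The related readers Ythdf1 and Ythdf3, named after their values were seen, had 6.17 and 2.85 and 3.72 and 3.06 in long exons just before the last, which in Ythdf1 was covered over all of its 1521 nt. Of the writer complex, Zc3h13 and Virma had 4 members each, also named after their values were seen. Those of Zc3h13 reached 8.32 in replicate 1 with 2.80 in replicate 2, while those of Virma stayed between 2.84 and 3.25 and between 1.59 and 3.50. The eraser Fto had 2.40 and 2.64 in exon 3, below the lower quartile of all members in replicate 1 and above the median in replicate 2. Prrc2a had 3 members. The pair in exon 16, 1842 nt long, had 4.92 and 5.11 in replicate 1 and lay under a single replicate 2 peak of 2.64. The member that filled exon 12 of 478 nt had 2.00 and 2.38 and held no GGAC.

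Of the other genes followed in the study, Cspg4, the proteoglycan NG2 of oligodendrocyte precursors, had 5.08 and 3.08 in a member of 1276 nt in exon 3. A second member there was an overlap of only 5 nt at the meeting point of wider peaks of 2.02 and 3.01. Mbp, encoding myelin basic protein, had 2.58 and 1.55 in an exon of 431 nt. This was exon 4 of 7 in the Mbp mRNA with the longest coding sequence. Its place in other Mbp transcripts was not examined, so that it need not be an internal coding exon there. The value of 1.55 was below the lower quartile of all members. In the oligodendrocyte list 5 of 7 long exons held a member (71.4%), a share like that over all genes, and Cnp, an enzyme of myelin, had 3.38 and 2.56. Olig2, Pdgfra and Nes had no internal exon that could hold a member by the rule. Their shared intervals, 4 in Olig2, 2 in Pdgfra and 5 in Nes, lay in other parts of the mRNA. Sox10 had 1 such exon, of 506 nt, without a member, and 5 shared intervals elsewhere.

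The values next to the limit of 400 nt were as follows. Just inside it, Ice1 had 1.96 and 2.07 on an exon of 401 nt and Bag3, a co-chaperone, 2.90 and 2.22 on an exon of 402 nt. Just outside, Srpk1, a kinase of splicing factors, had 2.18 and 2.34 on an exon 1 nt under the limit, and Gdf11, a secreted factor of the TGF-beta family, 3.98 and 3.28 on one of 398 nt.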

How the data were processed

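m6A-seq libraries of mouse brain were analysed as the deposited peak lists, 1 per IP replicate. Per the submitters' processing notes and the methods, the authors aligned reads to mm10 with TopHat2 (2.0.9 in the notes), kept uniquely mapped reads, and called peaks with MACS2 for each replicate against its own input, keeping duplicates, without pooling. The deposited fold enrichment of a peak is a linear ratio of IP over input. The deposited start and end positions were used as given, with both ends counted. The lists hold no read counts, summit, strand or p-value, so depth is unknown. Keeping duplicates can raise the value of peaks built on few molecules, and a wide peak has a single value.

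Shared intervals were the common bases of overlapping peaks (at least 1 bp). Midpoints were placed on 21866 representative transcripts of GENCODE M21, and sequence was read from GRCm38 with pysam 0.24.0. Analyses used Python 3.11.15, numpy 2.4.6, pandas 2.3.3 and scipy 1.17.1. Placement was tested on simulated peak pairs, of which 499 of 499 returned to their class and gene. Eligible positions were all exon positions that satisfied the same distances from codons, and were enumerated. Wilson 95% intervals cover counting error over peaks, exons or motif occurrences only. These are not independent replicates. The 2 replicates of the single condition allow no p-value below 0.5, and between features none is given.

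The members, gene lists and named genes were chosen with earlier results of these data known. Named were the 10 members with the largest lower fold enrichment of both replicates (1 per gene), the 5 genes with most members, the 3 longest exons, the genes the study followed, the top 2 genes of each list, and the values next to 400 nt. Of the list genes, Casc5 did not match the annotation. Of the members, 93 lay on chromosome 18, of which no sequence is shown. Alternatives covered overlap, fold enrichment, exon length, distance from codons, transcript choice, motif and single replicates. The 2 input samples had no processed files here.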

Additional observations from a re-analysis of the deposited data

Results flagged for a closer look

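Peaks of long internal exons that were called in a single replicate enter none of the comparisons of shared intervals. They made up 17.8% of the replicate 1 peaks in long internal exons, that is 559 peaks in 441 genes with a median fold enrichment of 2.94. In replicate 2 they were 7.08%, in 184 genes, with a median of 2.01. GGACT was denser inside them than in the rest of the same exons, with ratios of 1.67 and 1.68, each below the 2.52 of the members. There is no control sample with a peak list against which these numbers could be set.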

How the results depend on the processing

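Of 102 alternative values for 9 results, 59 stayed near the value in the report and 43 moved. Near means within 1.5 times for the numbers of members and genes, within 1 SD for the log2 differences and the GGACT ratio, and within the Wilson 95% interval for shares and the difference near borders. The log2 differences, the GGACT ratio and the difference near borders, which have a direction, kept it under every alternative tried for them. With exons of at least 1000 nt there were 1337 members in 689 genes, and the log2 difference from short internal exons was 0.43 in replicate 1 and 0.35 in replicate 2. With at least 2-fold enrichment in both replicates this difference was 0.27 and 0.18, and with intervals wholly inside the exon it was 0.67 in replicate 1.

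The share of long exons with a member depended most on the exons counted. It was 46.9% over all genes, 68.0% for genes with a shared interval outside internal exons (an alternative chosen after seeing the data), 58.5% for intervals wholly inside, 66.3% with an overlap of at least 50% of both peaks, 64.1% with at least 2-fold enrichment, 56.4%, 82.4% and 88.6% for exons of at least 300, 600 and 1000 nt, 73.7% and 65.2% for more than 100 and 400 nt from codons, and 76.9% for at least 100 nt of shared interval in the exon. With the peaks of a single replicate it was 73.3% to 74.9%.

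The share of midpoints within 100 nt of a border, minus that of eligible positions, was -17.1 percentage points, measured against single positions. For the members wholly inside, even placement at their own length gave 13.7% within 200 nt, against 15.3% observed. Such a value for midpoints was not given within 100 nt, nor for members that reach over a border. Against single positions the difference was -19.4 with 50% overlap, -17.6 with 2-fold enrichment, -18.0, -12.6 and -8.03 for exons of at least 300, 600 and 1000 nt, -15.7 beyond 400 nt from codons, -18.1 for intervals wholly inside, -20.3 within 200 nt, and -17.9 to -15.9 with single replicates. The GGACT ratio of 2.52 was 1.81 to 2.09 with single replicates, where only the peaks of that replicate were left out of the rest. It was 2.98 in windows of 100 nt and 1.91 against all sequence outside shared intervals, and the ratio was 1.98 for GGAC and 1.27 for DRACH. The shared part of replicate 1 peaks was 68.3% with 50% overlap, 72.7% with 2-fold enrichment and 80.3% for exons of at least 300 nt, and that of replicate 2 was 76.6% with 50% overlap and 90.0%, 93.9% and 94.7% for exons of at least 300, 600 and 1000 nt. Except where fewer exons or peaks were counted, the cause was not tested. No paired analysis was possible because the input samples that share replicate numbers with the IP samples have no processed file here and enter only through the fold enrichment. With depth unknown, an exon without a peak cannot be told apart from one with too few reads.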
